A study of Mus musculus with 12 samples.

Results

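Interferon-stimulated genes (ISGs) were examined in whole mouse skin with and without AhR, the aryl hydrocarbon receptor, which regulates transcription when switched on by small molecules from diet, microbes and pollutants, before and after treatment with imiquimod (IMQ), a Toll-like receptor 7 agonist used to provoke psoriasis-like skin inflammation. The list of type I interferon-stimulated genes held 37 genes, taken by name: interferon-responsive transcription factors, RNA and nucleic acid sensors, the OAS, IFIT, MX and GBP families, the ISG15 system, TRIM proteins and chemokines that bind the receptor CXCR3. Of the 18193 genes measured, 35 were on the list. Isg15 and Ifi44 were not analysed here. No filter on low signals was applied, so all 35 were tested.

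The 12 arrays fell into 4 groups of 3, labelled as biological replicates: AhR HET untreated, AhR KO untreated, AhR HET 2d Imiquimod and AhR KO 2d Imiquimod. AhR HET mice carried 1 functional Ahr allele (Ahr+/-) and were the littermate controls, so no wild-type skin entered these comparisons, and AhR KO mice lacked the receptor in all cells (Ahr-/-). Cream with IMQ was put on shaved back skin daily and skin was taken on day 2. Untreated mice received no cream, so IMQ cannot be told apart from the cream base or the handling. The question for the ISGs was whether skin with or without AhR raised the interferon program during this early phase of inflammation, a pathway that the study also examined in human psoriasis skin exposed to AhR ligands. Values are log2 signals per gene, listed in the order of replicates 1, 2 and 3, and a difference of 1 is a 2-fold difference. Whole skin was measured, in which fewer cells of a type and less RNA per cell cannot be told apart.

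Type I interferons are secreted when sensors detect foreign or misplaced nucleic acids. They bind a common receptor on most cells and, through JAK kinases, activate a complex of STAT proteins with IRF9 that binds the interferon-stimulated response element (ISRE) in promoters. The induced genes degrade viral RNA, block translation, trap virus particles and limit the response itself, and in keratinocytes and skin leukocytes they form one of the best known inflammatory expression programs. IRF7, itself an ISG, drives further transcription of interferon genes.

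The promoters show what these genes share. RefSeq promoters (GRCm38.p6, 250 bases before to 50 after the start) were at hand for 28 of the 37 genes. They were searched on both strands for the ISRE core GAAANNGAA, which reads TTCNNTTTC on the other strand, and for the gamma-activated site TTCNNNGAA, which is its own reverse. The ISRE core occurred in 20 of the 28 genes (71.4%), against 9.76% of all 27025 genes with a promoter of that length. The gamma-activated site occurred in 6 of the 28 (21.4%), against 9.55% of all genes, and in 2 of these its letters overlapped an ISRE core. No promoter was at hand for Dhx58, Zbp1, Oas2, Mx1, Mx2, Usp18, Ifi27l2a, Rtp4 and Parp14. The stretches just upstream of the start are given for Irf7 and Cxcl10, whose signals changed in Ahr-/- skin, for Gbp2 and Gbp3, which had the lowest adjusted p in the difference of responses, for Ddx60, which spread most between arrays, and for Ifit1, which had 3 matches. They are written 5′ to 3′ on the gene's strand, with ISRE core letters in capitals.
Irf7, chr7:141266425-141266524, minus strand: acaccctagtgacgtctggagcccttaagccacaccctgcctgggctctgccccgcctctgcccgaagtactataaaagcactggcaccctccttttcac
Cxcl10, chr5:92348890-92349129, minus strand: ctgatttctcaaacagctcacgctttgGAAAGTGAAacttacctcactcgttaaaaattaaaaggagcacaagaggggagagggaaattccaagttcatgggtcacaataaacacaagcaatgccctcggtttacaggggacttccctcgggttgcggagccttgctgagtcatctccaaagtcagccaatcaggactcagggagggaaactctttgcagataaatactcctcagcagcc
Gbp2, chr3:142620563-142620662, plus strand: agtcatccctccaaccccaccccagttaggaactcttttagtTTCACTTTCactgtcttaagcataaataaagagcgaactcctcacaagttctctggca
Gbp3, chr3:142559944-142560043, plus strand: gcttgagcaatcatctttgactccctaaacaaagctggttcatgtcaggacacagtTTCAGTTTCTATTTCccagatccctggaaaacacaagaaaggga
Ddx60, chr8:61927987-61928086, plus strand: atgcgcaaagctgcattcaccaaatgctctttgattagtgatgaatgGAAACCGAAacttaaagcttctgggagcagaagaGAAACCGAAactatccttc
Ifit1, chr19:34640769-34640888, plus strand: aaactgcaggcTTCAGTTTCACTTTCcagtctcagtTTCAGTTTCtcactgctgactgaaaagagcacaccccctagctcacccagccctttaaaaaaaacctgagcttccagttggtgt
In Gbp3 and at the first site of Ifit1 a pair of matches overlap. The Irf7 window held neither motif by these letters.

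RNA quality and tissue makeup differed between arrays. For Gapdh, the 3′ control probe set exceeded the 5′ one, a gap that widens as RNA degrades, by a log2 value of 1.17 and 1.52 in Ahr-/- IMQ arrays 1 and 2 and 0.14 to 0.53 in the others. The skin markers Krt5 (12.82 to 13.84) and Col1a1 (9.92 to 12.14) were at high signal in all 12 arrays, while other keratinocyte markers differed between groups, as given with the marker lists. The Ahr probe set with the higher signal was not lower in untreated Ahr-/- (11.29 to 11.44) than in untreated Ahr+/- skin (10.11 to 11.3), and where it lies relative to the deleted part was not determined. Untreated Ahr+/- array 2 stood apart: its 7 hair follicle growth phase markers were the highest and its 5 pan-leukocyte markers the lowest of all 12 arrays (Ptprc 9.1, against 10.27 to 10.99 elsewhere).

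The same array also stood apart in the ISGs. It held the lowest of the 12 signals for 28 of the 35 genes, and their median deviation from each gene's mean over the arrays was -1.09 there. The other untreated Ahr+/- arrays lay at 0.40 and -0.30, the untreated Ahr-/- arrays at 0.00, 0.39 and -0.07, the Ahr+/- IMQ arrays at 0.01, 0.09 and 0.15, and the Ahr-/- IMQ arrays at -0.03, 0.18 and 0.22. Untreated Ahr+/- array 1, in turn, was the highest of its group for 30 of the 35 genes. Untreated Ahr-/- array 2 was the highest of its group for 33. The pan-leukocyte markers had median deviations of 0.32, -1.69 and -0.57 in the untreated Ahr+/- arrays, in the same order as the ISGs, and those of the hair follicle were 1.10, 5.07 and 1.18; their part in the ISG levels was not tested.

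**Figure D1:**
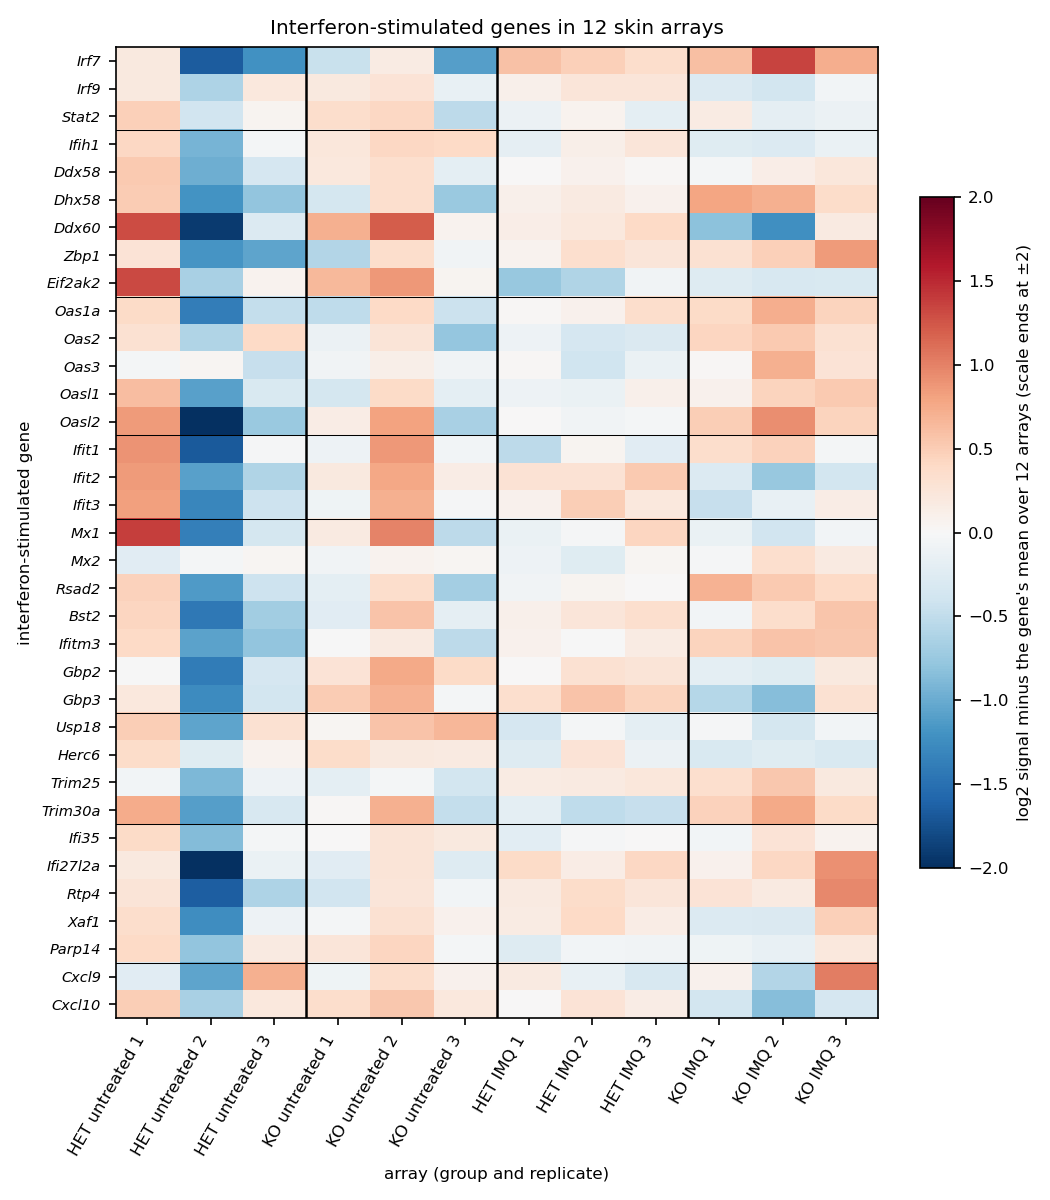
Log2 signal of 35 interferon-stimulated genes (rows, grouped by role) in 12 skin arrays (columns), as the deviation from each gene's mean over the arrays; colours end at a deviation of 2. The column of untreated HET array 2 is blue in nearly every row, with a median of -1.09, while the 3 HET IMQ columns are pale.

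Within-group spread of the ISGs was wide without treatment and narrow after it. The median SD over the 35 genes was 0.82 in untreated Ahr+/- and 0.37 in untreated Ahr-/- skin, against 0.24 and 0.18 over all genes. After IMQ it was 0.14 in Ahr+/- and 0.23 in Ahr-/- skin, close to the 0.13 and 0.20 of all genes. An SD over 0.5 occurred in 29 of the 35 genes in untreated Ahr+/- skin, in 11 in untreated Ahr-/- skin, in 0 in Ahr+/- IMQ skin and in 3 in Ahr-/- IMQ skin. Ddx60, which encodes a helicase that acts beside the RIG-I-like sensors, had the widest spread (SD 1.61, a range of 3.22 in 3 untreated Ahr+/- arrays), and Mx2 the narrowest there (SD 0.14). The standard errors below pool the 4 groups, so that the median SE of a difference was 0.34 for the ISGs and 0.18 for all genes.

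**Figure D2:**
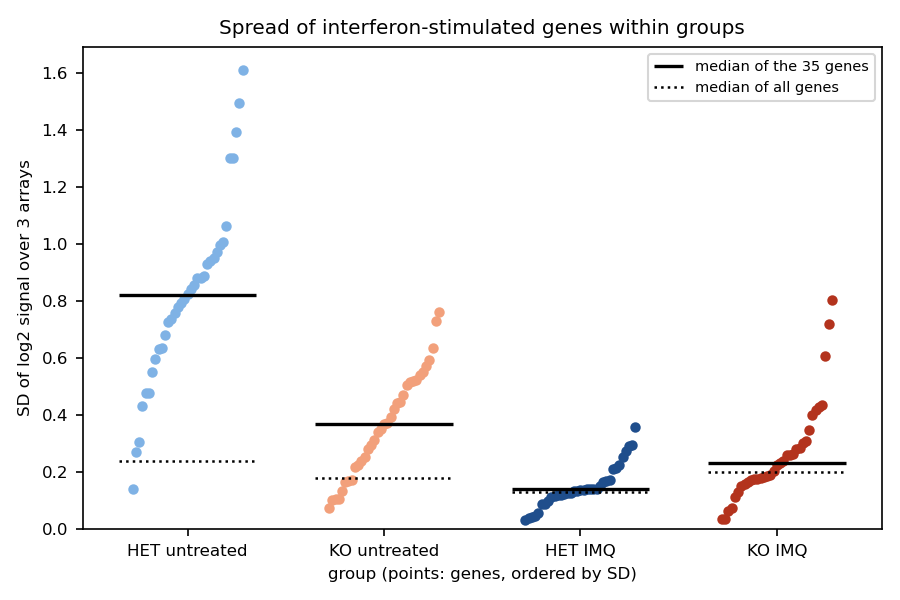
Standard deviation of the log2 signal over the 3 arrays of each group for the 35 interferon-stimulated genes (points), with their median (solid line) and the median of all 18193 genes (dotted line). The median of the ISGs is 0.82 in untreated HET skin and 0.14 in HET IMQ skin.

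**Figure D3:**
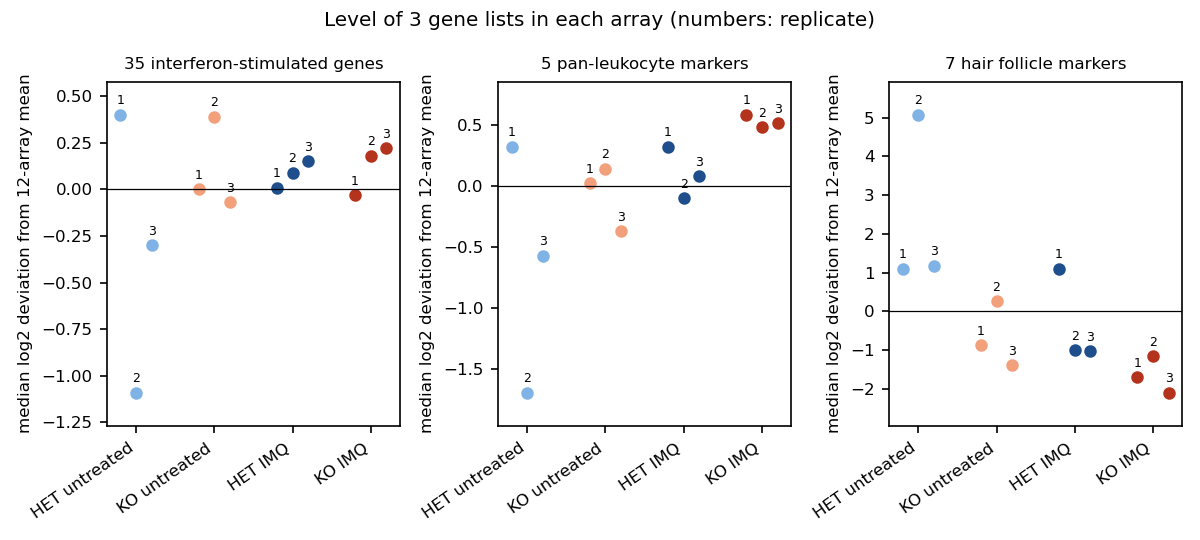
Median log2 deviation from the mean of 12 arrays in each array (points, numbered by replicate) for the 35 interferon-stimulated genes, 5 pan-leukocyte markers and 7 hair follicle growth phase markers. Untreated HET array 2 is the lowest for the ISGs (-1.09) and the leukocyte markers (-1.69) and the highest for the hair follicle markers (5.07).

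In Ahr+/- skin no ISG passed the test after 2 days of IMQ. Of the 35 genes, 0 were called higher and 0 lower (limma, adjusted p under 0.05 and at least 1.5-fold), against 5.22% called higher and 3.83% called lower of all genes. At an unadjusted p under 0.05, 7 were higher and 0 lower. Differences ran from -0.72 for Eif2ak2 to 1.36 for Irf7, 26 of 35 lay above 0, and their median was 0.30, against -0.01 over all genes. Without untreated Ahr+/- array 2 the ISG median was -0.03, with 15 of 35 above 0 and 1 called lower (Eif2ak2, -1.17). It was 0.69, with 32 above 0 and 11 called higher, without untreated Ahr+/- array 1. Of all genes, 1290 were called higher and 1146 lower without array 2, and 1191 and 644 without array 1.

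With IMQ in Ahr-/- skin, Irf7 went up and Cxcl10 went down. These were 1 ISG called higher and 1 called lower of 35, against 10.6% and 12.1% of all genes. The ISGs were otherwise divided: 18 lay above 0 and 17 below, the median was 0.02 (0.07 over all genes), and differences ran from -1.28 for Ddx60 to 1.35 for Irf7. IMQ and untreated arrays did not overlap for 6 genes upward and 7 downward. Upward these were Irf7, Dhx58, Oas2, Rsad2, Ifitm3 and Trim25, and downward Ifih1, Eif2ak2, Ifit2, Gbp2, Usp18, Herc6 and Cxcl10. Such separation was found upward in 21.7% and downward in 21.1% of all genes. The number of ISGs called moved with single arrays through the pooled spread or the groups themselves. It was 9 without untreated Ahr+/- array 1 and 6 without untreated Ahr+/- array 2. It was 1 without untreated Ahr-/- array 2 or 3, and 0 without untreated Ahr-/- array 1 or Ahr-/- IMQ array 2. Of all genes, 2001 were called higher and 2296 lower without untreated Ahr+/- array 1, and 2090 and 2387 without array 2. They were 1501 and 1777 without untreated Ahr-/- array 1, and 1585 and 1734 without Ahr-/- IMQ array 2.

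Among the transcription factors, Irf7 was 8.29, 6.43 and 6.89 in untreated and 8.68, 8.57 and 8.45 in IMQ-treated Ahr+/- skin, and 7.65, 8.27 and 6.99 in untreated and 8.70, 9.45 and 8.82 in IMQ-treated Ahr-/- skin. Every IMQ array exceeded every untreated array of its genotype. The log2 difference was 1.36 in Ahr+/- (SE 0.42, adjusted p = 0.0579 by limma) and 1.35 in Ahr-/- skin (SE 0.42, adjusted p = 0.0295), a fold change of 2.57 and 2.55, and the responses differed by -0.01 (95% interval -1.29 to 1.27). The call in Ahr-/- skin was lost without untreated Ahr-/- array 1 or 3 or Ahr-/- IMQ array 2, with adjusted p of 0.0748, 0.107 and 0.12. In Ahr+/- skin Irf7 was called without untreated array 1 (1.91, adjusted p = 0.00361).

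The other factors, partners in the complex that interferon activates, moved little. Irf9 was 8.64, 7.83 and 8.66 in untreated and 8.55, 8.70 and 8.70 in treated Ahr+/- skin, and 8.65, 8.72 and 8.31 in untreated and 8.17, 8.09 and 8.39 in treated Ahr-/- skin. Stat2 was 6.82, 5.95 and 6.39 and then 6.22, 6.41 and 6.14 in Ahr+/- skin, and 6.69, 6.76 and 5.82 and then 6.50, 6.16 and 6.22 in Ahr-/- skin. Treated and untreated arrays overlapped for both genes in both genotypes. Differences after IMQ were 0.27 and -0.34 for Irf9 and -0.13 in each genotype for Stat2, with adjusted p from 0.255 to 0.822.

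The sensors split within their list. Ddx60 was 8.53, 5.31 and 6.96 in untreated and 7.36, 7.44 and 7.63 in treated Ahr+/- skin, and 7.93, 8.44 and 7.30 in untreated and 6.41, 6.0 and 7.40 in treated Ahr-/- skin. Eif2ak2, which encodes the RNA-activated kinase PKR, was 8.46, 6.48 and 7.21 and then 6.38, 6.54 and 7.06 in Ahr+/- skin, and 7.79, 8.00 and 7.19 and then 6.88, 6.81 and 6.83 in Ahr-/- skin. The low Ddx60 values after IMQ in Ahr-/- skin were those of arrays 1 and 2, the arrays with the high Gapdh difference, and array 3 overlapped the untreated arrays; the part of RNA quality was not tested beyond the fit with that difference as a covariate. Eif2ak2 separated without overlap in Ahr-/- skin but did not pass (-0.82, SE 0.39, adjusted p = 0.14), and Ddx60 did not pass either (-1.28, SE 0.62, adjusted p = 0.147). In Ahr+/- skin Ddx60 had a difference of 0.55, which was -0.27 without untreated array 2 and -0.35 from the mean of its probe sets. Of the other sensors, Zbp1 (0.88 and 0.65 in Ahr+/- and Ahr-/- skin) and Dhx58 (0.62 and 0.87) lay above 0 in both genotypes. Ifih1, which encodes the RNA sensor MDA5, had 0.24 and -0.56, and Ddx58, which encodes RIG-I, had 0.30 and -0.01, and none of the 4 passed.

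The OAS family, whose enzymes make the 2′-5′ oligoadenylates that activate RNase L, lay above 0 in all 5 members in Ahr-/- skin and in 3 of 5 in Ahr+/- skin, with no call. Oas2 was 8.86, 7.95 and 8.95 in untreated and 8.45, 8.21 and 8.27 in treated Ahr+/- skin, and 8.43, 8.81 and 7.78 in untreated and 8.99, 9.08 and 8.86 in treated Ahr-/- skin. All treated Ahr-/- arrays exceeded all untreated ones (0.64, SE 0.28, adjusted p = 0.107), while the treated Ahr+/- arrays lay inside the untreated range (-0.28). Oas1a had 0.65 and 0.70, Oas3 -0.03 and 0.34, Oasl1 0.21 and 0.41, and Oasl2 0.65 and 0.52 in Ahr+/- and Ahr-/- skin.

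The IFIT genes encode proteins that bind foreign RNA. Ifit1 was 8.54, 5.97 and 7.63 in untreated and 7.12, 7.70 and 7.42 in treated Ahr+/- skin, and 7.55, 8.52 and 7.59 in untreated and 7.99, 8.11 and 7.61 in treated Ahr-/- skin. Its mean after IMQ was within 0.03 of that before in either genotype, with 95% intervals from -1.04 to 1.10 and from -1.05 to 1.08. Ifit3 was 9.19, 7.07 and 7.96 and then 8.46, 8.87 and 8.58 in Ahr+/- skin (0.56), and 8.29, 9.09 and 8.35 and then 7.91, 8.23 and 8.52 in Ahr-/- skin (-0.36). Ifit2 had 0.64 in Ahr+/- and -0.84 in Ahr-/- skin (adjusted p = 0.327 and 0.12). None of these passed, and the SD in untreated Ahr+/- skin was 1.30, 1.01 and 1.06 for Ifit1, Ifit2 and Ifit3.

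Of the antiviral effectors, Rsad2, which encodes viperin, was 9.30, 7.72 and 8.44 in untreated and 8.78, 8.90 and 8.85 in treated Ahr+/- skin, and 8.65, 9.20 and 8.17 in untreated and 9.54, 9.37 and 9.24 in treated Ahr-/- skin. Mx2, which encodes a dynamin-like GTPase, was 6.28, 6.47 and 6.56 and then 6.41, 6.27 and 6.55 in Ahr+/- skin, and 6.45, 6.59 and 6.56 and then 6.49, 6.85 and 6.69 in Ahr-/- skin. Rsad2 separated without overlap only in Ahr-/- skin (0.71, SE 0.33, adjusted p = 0.134; 0.35, adjusted p = 0.576 in Ahr+/- skin), and Mx2 stayed between 6.27 and 6.85 in all 12 arrays. Mx1 had 0.20 and -0.40, Bst2, which tethers virus particles, 0.79 and 0.23, and Ifitm3, which blocks virus entry, 0.57 and 0.63 in Ahr+/- and Ahr-/- skin, none called.

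The guanylate-binding proteins Gbp2 and Gbp3, which attack pathogen vacuoles and respond to both interferon classes, had differences above 0 in Ahr+/- and below 0 in Ahr-/- skin, none of which passed the test. Gbp2 was 9.71, 8.32 and 9.38 in untreated and 9.72, 10.03 and 9.97 in treated Ahr+/- skin, and 9.99, 10.47 and 10.10 in untreated and 9.53, 9.48 and 9.92 in treated Ahr-/- skin. Gbp3 was 8.89, 7.43 and 8.32 and then 9.02, 9.26 and 9.13 in Ahr+/- skin, and 9.19, 9.37 and 8.65 and then 8.11, 7.83 and 8.99 in Ahr-/- skin. Gbp2 arrays did not overlap in either genotype, upward in Ahr+/- (0.77, SE 0.29, adjusted p = 0.116) and downward in Ahr-/- skin (-0.55, SE 0.29, adjusted p = 0.187), though in Ahr+/- skin the nearest arrays lay at 9.71 and 9.72. Gbp3 had 0.93 (adjusted p = 0.121) and -0.76 (adjusted p = 0.133), and its treated Ahr-/- array 3 lay within the untreated range, above arrays 1 and 2 with the wide Gapdh gap. In Ahr-/- skin Gbp3 stood at -0.19 with the Gapdh covariate and at -0.08 with IMQ array 3 alone, and at -1.10 (adjusted p = 0.0369) without IMQ array 3. Without untreated Ahr+/- array 1, Gbp2 and Gbp3 were called higher in Ahr+/- skin (adjusted p = 0.0322 and 0.0368).

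In the ISG15 system, Usp18, the protease that removes ISG15 and restrains the receptor, was 8.46, 6.91 and 8.27 in untreated and 7.63, 7.93 and 7.77 in treated Ahr+/- skin, and 8.00, 8.53 and 8.63 in untreated and 7.94, 7.62 and 7.91 in treated Ahr-/- skin. Treated arrays lay below all untreated arrays in Ahr-/- skin (-0.56, SE 0.33, adjusted p = 0.225) and within their range in Ahr+/- skin (-0.10). Herc6, an ISG15 ligase in mice, had an adjusted p of 0.0383 in Ahr-/- skin but missed the fold minimum (-0.54, SE 0.18), and was at -0.10 in Ahr+/- skin. Trim25, a ubiquitin ligase that activates RIG-I, separated upward in both genotypes, by 0.54 (SE 0.21, adjusted p = 0.118) and 0.56 (SE 0.21, adjusted p = 0.0606). From the mean of its 3 probe sets Trim25 was called in both (0.89, adjusted p = 0.00701, and 0.74, adjusted p = 0.00771). Trim30a was at -0.16 and 0.45.

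The remaining ISGs of less defined function lay between -0.06 and 1.03 in Ahr+/- skin and between -0.22 and 0.55 in Ahr-/- skin. Ifi27l2a had 1.03 and 0.55, Rtp4 0.93 and 0.53, Xaf1 0.57 and -0.15, Ifi35 0.10 and -0.06, and Parp14 -0.06 and -0.22. None was called in either genotype.

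The chemokines attract T and NK cells bearing CXCR3 and are induced by interferon-γ as well as type I interferon. Cxcl10 was 7.39, 6.25 and 7.11 in untreated and 6.91, 7.18 and 7.05 in treated Ahr+/- skin, and 7.25, 7.45 and 7.11 in untreated and 6.53, 6.05 and 6.56 in treated Ahr-/- skin. Cxcl9 was 7.69, 6.87 and 8.63 and then 8.10, 7.78 and 7.60 in Ahr+/- skin, and 7.84, 8.28 and 8.01 and then 8.01, 7.34 and 8.94 in Ahr-/- skin. Cxcl10 fell in Ahr-/- skin by 0.89 on the log2 scale (SE 0.25, adjusted p = 0.0191), with all treated below all untreated arrays, and had a difference of 0.13 in Ahr+/- skin (SE 0.25, adjusted p = 0.816). Its call was lost without untreated Ahr-/- array 1 or 2 or Ahr-/- IMQ array 2, with adjusted p of 0.0525, 0.0742 and 0.0847. Cxcl9 overlapped in both genotypes (0.10 and 0.05). With the Gapdh difference as a covariate neither Irf7 (1.18, adjusted p = 0.217) nor Cxcl10 (-0.72, adjusted p = 0.198) was called in Ahr-/- skin, and with Ahr-/- IMQ array 3 alone they stood at 1.18 and -0.71 (adjusted p = 0.3 and 0.274).

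**Figure D4:**
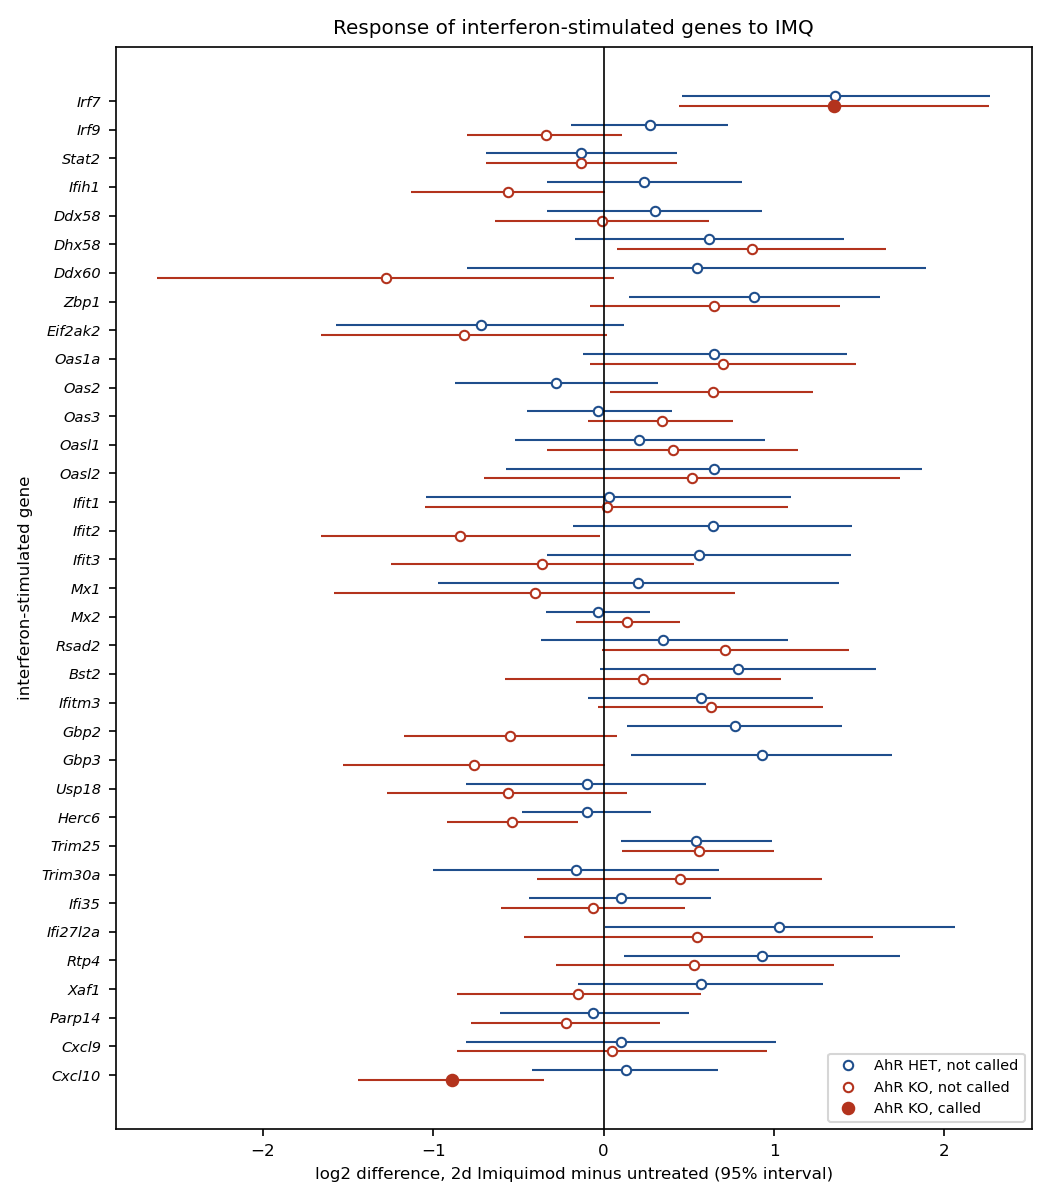
Log2 response to IMQ, treated minus untreated, with its 95% interval (limma, 3 arrays per group) for 35 interferon-stimulated genes in AhR HET (blue) and AhR KO (red) skin; filled points are called genes. Irf7 lies at 1.36 and 1.35, Cxcl10 at 0.13 and -0.89, and most intervals cross 0.

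**Figure D5:**
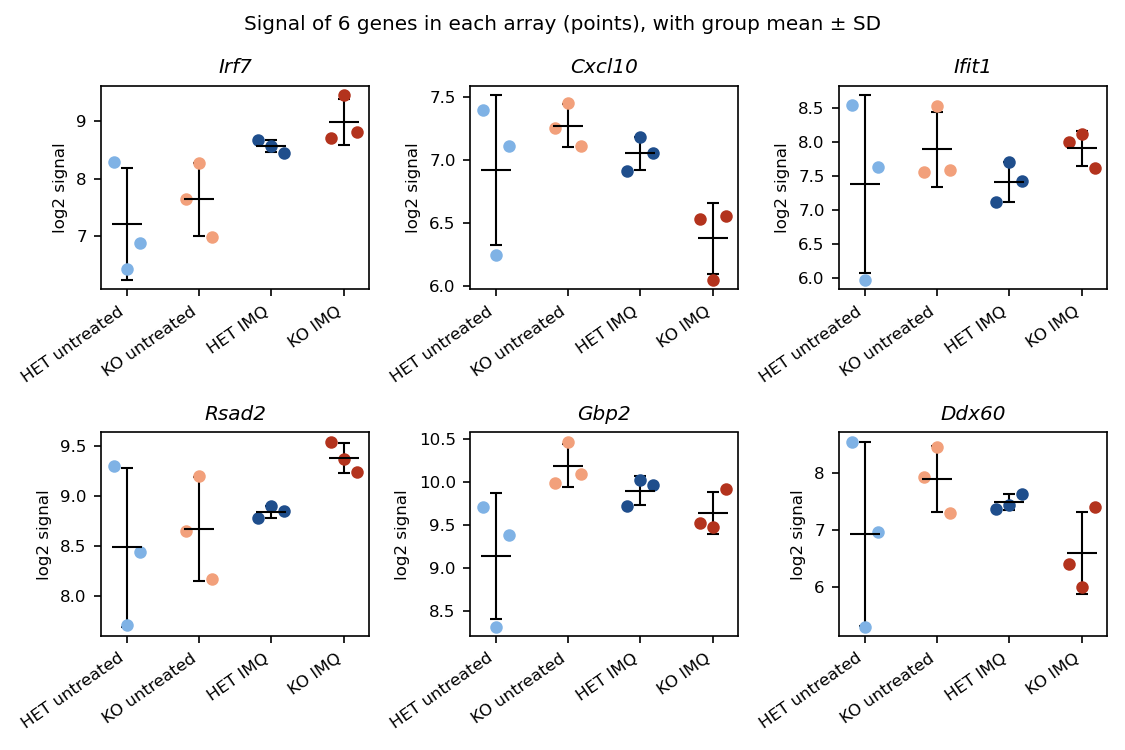
Log2 signal of Irf7, Cxcl10, Ifit1, Rsad2, Gbp2 and Ddx60 in each array (points, replicates 1 to 3 from left to right), with the mean and SD of each group of 3. The untreated HET points spread from 5.31 to 8.53 for Ddx60, and the KO IMQ points of Cxcl10 lie between 6.05 and 6.56, below every KO untreated point.

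On day 2 of IMQ no ISG differed between the genotypes by the test. Ahr-/- skin had 0 of 35 called higher and 0 lower than Ahr+/- skin, against 2.12% and 1.86% of all genes, and the lowest adjusted p was 0.154, for Cxcl10 (-0.67, SE 0.25). At an unadjusted p under 0.05, 3 were higher and 3 lower. Differences ran from -0.88 for Ddx60 to 0.92 for Trim30a, with a median of 0.17 (0.06 over all genes) and 24 above 0. Trim30a, an antiviral TRIM protein gene with close paralogs, was 8.59, 8.27 and 8.33 in Ahr+/- and 9.24, 9.54 and 9.16 in Ahr-/- IMQ skin (0.92, SE 0.39, adjusted p = 0.199), without overlap. All arrays of Ahr-/- skin also lay above those of Ahr+/- skin for Irf7, Dhx58, Oas1a, Oas2, Oas3, Oasl2, Rsad2 and Ifitm3, 9 genes with Trim30a, and below them for Irf9, Ifit2, Gbp3 and Cxcl10. Such separation occurred upward in 18% and downward in 15% of all genes. The fit to these 2 groups alone leaves out the wide spread of untreated skin. In it 3 ISGs were called higher (Oas2, Oasl2 and Trim30a) and 1 lower (Ifit2), beside 562 and 529 of all genes. Without untreated Ahr+/- array 1, Ifit2 was called lower (-0.83, adjusted p = 0.0391), and without untreated Ahr+/- array 2, Cxcl10 was (-0.67, adjusted p = 0.0324). In these fits 476 and 582 of all genes were called higher and 442 and 665 lower. The values of this comparison share the treated arrays with both responses to IMQ.

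In untreated skin 34 of 35 ISGs lay higher in Ahr-/- than in Ahr+/- skin, with none called. The counts were 0 higher and 0 lower, against 0.0055% and 0% of all genes, with 2 at an unadjusted p under 0.05, both higher, and a lowest adjusted p of 0.717. The median difference was 0.35 (0.02 over all genes), from -0.25 for Oas2, the 1 gene below 0, to 1.05 for Gbp2 (SE 0.29, unadjusted p = 0.00323). Gbp2 was also the 1 of 35 genes whose arrays did not overlap, against 5.03% of all genes upward. The direction rested on untreated Ahr+/- array 2: without it 18 of 35 genes lay above 0 and the median was 0.00. Without untreated Ahr+/- array 1 the median was 0.80 and 2 genes, Ifit2 and Gbp2, were called higher. In that fit 181 of all genes were called higher and 25 lower.

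No ISG passed the test of a different response to IMQ in the genotypes. Of 35, 0 had a larger and 0 a smaller response in Ahr-/- skin by the test, against 0.539% and 0.786% of all genes, and 1 and 4 at an unadjusted p under 0.05. Differences of responses ran from -1.83 for Ddx60 (SE 0.87, adjusted p = 0.304) to 0.91 for Oas2 (SE 0.39, adjusted p = 0.248). Their median was -0.17 (0.05 over all genes), with 10 above 0. The value for Ddx60 depended on the probe set: its other set fell less in Ahr-/- than in Ahr+/- skin, the opposite sign. The lowest adjusted p values belonged to Gbp3 (-1.69, SE 0.50, adjusted p = 0.113) and Gbp2 (-1.31, SE 0.41, adjusted p = 0.127). Without untreated Ahr+/- array 2 the median was 0.19 with 24 above 0, and without untreated Ahr+/- array 1 it was -0.63 with 5 genes called. In the latter fit 254 of all genes were called higher and 688 lower. The responses of 14 genes lay above 0 in both genotypes, 5 below 0 in both, 12 above 0 in Ahr+/- and below 0 in Ahr-/- skin, and 4 the reverse. Across the 35 genes the responses had a Pearson correlation of 0.34, which is over genes of the same arrays and not over independent samples.

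Signals of the interferon genes themselves were low. Of the 10 measured interferon ligands, the type I genes Ifna1, Ifna2, Ifna4, Ifna5, Ifna9, Ifna11, Ifnab and Ifnb1 lay between 2.89 and 6.46 in all arrays, and Ifng between 3.15 and 4.80, with no call in any comparison. Probes of the Ifna genes are nearly alike in sequence and their signals may be shared. Ifnz, annotated as interferon zeta, was 7.5, 7.11 and 7.57 in untreated and 6.59, 6.38 and 6.06 in treated Ahr+/- skin, and 7.49, 7.35 and 6.89 and then 7.31, 7.33 and 7.10 in Ahr-/- skin. It fell by 1.05 in Ahr+/- skin (SE 0.20, adjusted p = 0.00542) and was higher by 0.90 in Ahr-/- than Ahr+/- skin on day 2 (SE 0.20, adjusted p = 0.0249), a call that was lost without Ahr+/- IMQ array 2 or 3 or Ahr-/- IMQ array 1 or 2. The receptor genes Ifnar1 (7.88 to 8.66), Ifnar2 (8.15 to 9.65), Ifngr1 (9.34 to 10.28), Ifngr2 (7.31 to 8.93), Ifnlr1 (7.04 to 7.98) and Il10rb (8.61 to 9.55) had no call in any comparison, nor had any of the 8 measured JAK-STAT and IRF signalling genes.

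Of the 76 measured genes on the pathway lists, which hold these ligands, receptors and signalling genes, feedback inhibitors, upstream sensing genes and other interferon-inducible genes, IMQ raised 4 and lowered 1 in Ahr+/- skin (5.22% and 3.83% of all genes), and raised 7 and lowered 6 in Ahr-/- skin (10.6% and 12.1% of all genes), so these counts were near or under the share of all genes. Socs3, a feedback inhibitor of cytokine signalling, rose by 1.02 (adjusted p = 0.0281) in Ahr+/- and by 2.62 (adjusted p = 2.79e-05) in Ahr-/- skin. Myd88, the adaptor through which Toll-like receptor 7 signals, rose by 0.76 (adjusted p = 0.0428) and 1.10 (adjusted p = 0.00252). Slfn2, a schlafen gene of leukocytes, rose by 1.04 and 2.28, and Cd274, which encodes the checkpoint ligand PD-L1, by 1.16 and 0.98. Ifnz was the 1 gene called lower in Ahr+/- skin. These numbers moved with single arrays. In Ahr+/- skin 19 pathway genes were called without untreated array 1, and 1 to 3 without untreated array 3 or any 1 of the IMQ arrays. Of all genes, 1191 were called higher and 644 lower without untreated array 1, and 608 and 546 without untreated array 3. Without Ahr+/- IMQ array 1, 2 or 3, in turn, 584, 565 and 689 were called higher and 317, 419 and 453 lower.

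The other calls in Ahr-/- skin went both ways. Sting1, the adaptor of DNA sensing (0.68), and Isg20, an exonuclease gene (0.73), rose. Cmpk2, a mitochondrial nucleotide kinase gene next to Rsad2 in the genome (-1.46, SE 0.40, adjusted p = 0.0166), the GTPase gene Irgm2 (-1.02), the immunoproteasome gene Psmb9 (-0.84) and Mavs, the adaptor of RIG-I and MDA5 (-0.66, SE 0.14, adjusted p = 0.00513), fell. Of the remaining 3 called genes, all on the list of other interferon-inducible genes, 1 rose and 2 fell. Without untreated Ahr-/- array 1 or 2 the 13 calls were 8, without untreated Ahr+/- array 2 they were 20. With the Gapdh difference as a covariate they were 4. Of all genes, 1501 were called higher and 1777 lower without untreated Ahr-/- array 1, and 1492 and 1818 without array 2. They were 2090 and 2387 without untreated Ahr+/- array 2, and 1007 and 1219 with the covariate. Cmpk2, Isg20, Irgm2 and the remaining 3 genes lost their call without Ahr-/- IMQ array 2, and Irgm2, Cd274 and the remaining 3 without Ahr-/- IMQ array 1, each leaving 9 calls in all with those gained.

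The 34 measured genes on that list lay on balance above 0 after IMQ in Ahr+/- skin and below 0 in Ahr-/- skin. Their median difference after IMQ was 0.26 in Ahr+/- skin, with 28 above 0, and -0.29 in Ahr-/- skin, with 13 above 0. Over all genes these medians were -0.01 and 0.07, with 49% and 57.1% above 0. In untreated skin 33 of 34 lay higher in Ahr-/- than in Ahr+/- skin (median 0.50), and on day 2 of IMQ 17 did (median -0.04). Of all genes 53.9% (median 0.02) and 58.1% (median 0.06) did. Without untreated Ahr+/- array 2 the median of the 34 was 0.01 for the Ahr+/- response. Between the untreated genotypes it was then 0.15, with 27 of 34 above 0. The Ahr-/- response had a median of -0.06 (15 of 34 above 0) with the Gapdh covariate and of 0.01 (17 above 0) with Ahr-/- IMQ array 3 alone.

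On day 2 of IMQ, Socs3 (1.5), Slfn2 (1.36), Isg20 (1.10), Ifnz (0.90) and Sting1 (0.72) were higher and Mavs (-0.66, SE 0.14, adjusted p = 0.0253) lower in Ahr-/- than in Ahr+/- skin, 5 and 1 of 76, against 2.12% and 1.86% of all genes. The 6 calls were 1 without Ahr+/- IMQ array 2, 2 without Ahr+/- IMQ array 3 or Ahr-/- IMQ array 2, and 3 without Ahr-/- IMQ array 1. No pathway gene was called in untreated skin, and 6 were without untreated Ahr+/- array 1, where 181 of all genes were called higher and 25 lower. Mavs alone was called in the difference of responses (-1.24, SE 0.20, adjusted p = 0.0169), where 0.786% of all genes were called lower. This count of 1 was 9 without untreated Ahr+/- array 1, where 254 of all genes were called higher and 688 lower. It was 3 without untreated Ahr+/- array 2, and 2 without Ahr+/- IMQ array 1 or Ahr-/- IMQ array 3. It was 0 without untreated Ahr-/- array 1 or Ahr+/- IMQ array 2 or 3. The Mavs signals were 8.89, 8.33 and 8.53 in untreated and 9.17, 9.16 and 9.16 in treated Ahr+/- skin, and 9.09, 9.24 and 9.14 in untreated and 8.51, 8.46 and 8.52 in treated Ahr-/- skin. Treated arrays lay above all untreated arrays in Ahr+/- and below them in Ahr-/- skin. With the Gapdh difference as a covariate, 0 of the 76 genes were called on day 2 between the genotypes. In that fit 27 of all genes were called higher and 0 lower.

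Markers of other cells moved with the treatment and, in part, with genotype. Plasmacytoid dendritic cells are the best known source of type I interferon after Toll-like receptor 7 activation. Of their 6 measured markers, the defining Siglech lay between 5.34 and 5.94 in all 12 arrays, and 1 was called higher and 1 lower in each genotype (Ccr9 and Tcf4 in Ahr+/- skin, Klra17 and Tcf4 in Ahr-/- skin). In Ahr-/- skin Klra17 rose from a mean of 3.98 to 6.86 and Tcf4 fell from 10.74 to 9.89. Siglech (5.72 and 5.63), Ccr9 (6.04 and 6.12), Pacsin1 (4.69 and 4.75) and Il3ra (6.55 and 6.76) moved less there. The mean log2 signal of the 6 was 6.07 to 6.31 in untreated and 6.3 to 6.39 in treated Ahr+/- skin. In Ahr-/- skin, where Klra17 moved most, this mean of the 6 was 6.22 to 6.35 untreated and 6.52 to 6.85 treated. Their summed linear signal, in which Tcf4 is by far the brightest, went the other way, from 1709 to 2159 untreated to 1367 to 1494 treated in Ahr+/- skin, and from 1842 to 2110 to 1195 to 1441 in Ahr-/- skin.

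The counts of the other marker lists stand beside 5.22% of all genes called higher and 3.83% lower in the Ahr+/- response, 10.6% and 12.1% in the Ahr-/- response, and 2.12% and 1.86% between the treated genotypes. Neutrophil markers were called higher in 4 of 8 in Ahr+/- and 8 of 8 in Ahr-/- skin. On day 2 all 8 lay higher in Ahr-/- than in Ahr+/- skin, and 5 were called. Of 7 monocyte and macrophage markers, 1 was called higher in Ahr+/- skin, and 1 higher and 2 lower in Ahr-/- skin. Between the genotypes on day 2, 1 was called in each direction. There Cd14 had a mean of 9.05 in Ahr+/- and 12.49 in Ahr-/- skin, and Adgre1 went the other way, with 11.24 and 9.64. The pan-leukocyte list had 1 of 5 called higher in Ahr+/- and 0 in Ahr-/- skin, and the T and NK cell list 1 of 8 lower in Ahr+/- and 2 in Ahr-/- skin.

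Markers of the resident skin cells were called too. Of 5 keratinocyte markers, 2 were called higher in Ahr+/- skin, and 1 higher and 2 lower in Ahr-/- skin. On day 2 all 5 lay lower in Ahr-/- than in Ahr+/- skin, and 2 were called. The last were the differentiation keratins Krt1 (means 13.64 in Ahr+/- and 10.85 in Ahr-/- skin) and Krt10 (13.70 and 10.99), which were also the 2 called in the difference of responses. Of 6 dermal fibroblast markers, 2 were called lower in Ahr+/- skin, and 1 higher and 3 lower in Ahr-/- skin. Between the genotypes on day 2, 1 was called lower in Ahr-/- skin. Of 7 hair follicle markers, 3 were called lower after IMQ in Ahr+/- skin, the comparison that holds untreated Ahr+/- array 2. No hair follicle marker was called in the other comparisons. The part of these cells in the ISG signals was not tested.

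For 16 of the 35 ISGs a gene had over 1 probe set, and the brightest, by its mean signal in the 12 arrays, was taken. All sets of a gene had the same sign in 10 of the 16 in the Ahr+/- response, 11 in the Ahr-/- response, 9 between the treated genotypes, 12 between the untreated genotypes and 7 for the difference of responses. Both sets of Gbp2 gave a positive response in Ahr+/- (0.77 and 0.59) and a negative one in Ahr-/- skin (-0.55 and -0.48). The second set of Ddx60 fell below 0 in both genotypes (-1.25 and -0.84), and that of Trim30a gave 0.51 between the treated genotypes, against 0.92. Ifit3, Oas1a, Gbp3, Trim30a and Mx genes have close paralogs, and probe sets may read more than 1 of them.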

How the data were processed

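RNA of whole skin had been hybridised to 12 Affymetrix whole-genome mouse arrays, 3 for each of 4 groups. The deposited table held log2 signals of 45101 probe sets, which the authors had background-corrected, normalised and summarised by RMA with the affy package (version not given in the sources used here). Groups came from the sample labels. Here 34945 probe sets with 1 gene symbol in the platform annotation were reduced to 18193 genes by keeping the probe set with the highest mean signal of each gene. Probe sets for several genes (932) or without a symbol (9160) and 64 control probe sets were left out. Array medians were 7.38 to 7.56, and the number of arrays limits the precision.

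The 4 group means were fitted to all arrays with limma 3.58.1 (lmFit and eBayes, 8 residual and 4.44 prior degrees of freedom) in R 4.3.3, and moderated p-values were adjusted by the Benjamini-Hochberg method over all genes. Genes passed the test with an adjusted p below 0.05 together with a change of 1.5-fold or more, and are then termed called. No source gives the cages or days behind the replicates, so p-values measure the spread between these arrays. Replicate numbers did not pair the arrays: deviations of same-numbered arrays correlated between -0.18 and 0.32. The 5 comparisons were IMQ against untreated in each genotype, Ahr-/- against Ahr+/- skin in each condition, and the difference of the responses.

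The ISGs and the pathway and cell marker lists were chosen with earlier results of these data known. All ISGs were accounted for. Array values were given for called ISGs, for Irf7, Irf9, Stat2, Ifit1, Ifit3, Rsad2, Mx2, Usp18, Cxcl9 and Cxcl10, and for the largest rise and fall in each comparison, and for Gbp3, which was added after its values were seen. Pathway genes were named where called, up to 6 in a list by adjusted p. The 26 alternatives covered thresholds, probe set choice, a signal filter, normalisation, variance models, array weights, the groups fitted, a Gapdh covariate, a replicate block, each array left out, the 2 Ahr-/- IMQ arrays with the wide Gapdh gap left out, and the rank product of the study's methods, written anew in Python 3.11.15 (numpy 2.4.6, pandas 2.3.3). Figures were drawn with matplotlib 3.10.9.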

Additional observations from a re-analysis of the deposited data

Results flagged for a closer look

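The response of Mavs, the adaptor of RIG-I-like RNA sensors, differed between the genotypes by the test of that difference. It was lower in Ahr-/- than in Ahr+/- skin by a log2 value of -1.24 (SE 0.20, limma adjusted p = 0.0169), and the limma alternatives gave adjusted p values between 0.00143 and 0.218. The call was lost with the mean of all Mavs probe sets (-0.88, adjusted p = 0.0613), with the Gapdh covariate (-1.19, adjusted p = 0.218), with Ahr-/- IMQ array 3 alone (-1.21, adjusted p = 0.188), and without untreated Ahr-/- array 1, Ahr+/- IMQ array 2 or Ahr+/- IMQ array 3 (adjusted p = 0.0544, 0.0611 and 0.0566).

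Gbp2 was the 1 ISG whose arrays separated upward after IMQ in Ahr+/- skin and downward in Ahr-/- skin, as 196 of all 18193 genes had opposite responses without overlap. The difference of its responses was -1.31 and did not pass the test (SE 0.41, adjusted p = 0.127). Without untreated Ahr+/- array 1 it was -1.60 (adjusted p = 0.0318).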

How the results depend on the processing

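Counts of called ISGs depended on the setting. For the Ahr+/- response, 0 in the main setting, the count was 1 with the mean of all probe sets, 1 with arrays centred on their medians and 2 with array weights. Of all genes, these settings called 884, 948 and 1532 higher and 566, 727 and 1031 lower. For the Ahr-/- response, 2 in the main setting, the ISG count was 8 with array weights and 8 with a fit to the groups compared alone. It was 0 at an adjusted p under 0.01, with the Gapdh covariate or by the rank product. Of all genes, array weights called 2636 higher and 2528 lower in this response, and the groups alone 2062 and 2367. An adjusted p under 0.01 called 1255 and 1470, the covariate 1007 and 1219, and the rank product 192 and 168. Between treated genotypes (main 0) the ISG count was 4 with array weights and 4 with the groups alone. For the difference of responses (main 0) it was 5 with array weights. Of all genes, 996 were called higher and 1023 lower with array weights between treated genotypes, and 562 and 529 with the groups alone. In the difference of responses array weights called 930 and 1166 of all genes. Leaving out 1 array gave 0 to 11 called ISGs for the Ahr+/- response and 0 to 9 for the Ahr-/- response. It gave 0 to 1 between treated and 0 to 2 between untreated genotypes, and 0 to 5 for the difference of responses. With the replicate number as a block the counts were 0, 2, 0, 0 and 0, as in the main setting. No called gene reversed. Of 5128 values of single genes under alternatives, 4751 kept their call or stayed within 1 SD, 180 lost a call, 66 gained one and 131 moved by over 1 SD without a call, and 184 uncalled values took the other sign. A changed threshold, or an array left out of a group not compared, leaves the log2 difference as it was. Many of the 4751 values could therefore not move, and their number does not measure robustness. Adjusted p in Ahr-/- skin ran from 0.00474 to 0.3 for Irf7 and from 0.000375 to 0.274 for Cxcl10, the rank product aside. Rank product values (estimated share of false positives) were 0.086 and 0.295. The causes were not tested. The rank product and the fit to the groups alone have no form for the difference of responses.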
